A study of Mus musculus with 2 samples.

Results

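Chemokines are small secreted or membrane-bound proteins that attract cells carrying the matching receptor, and this account covers chemokine, chemokine receptor and atypical chemokine receptor genes, chosen by their symbols, in single cells of the aged mouse hippocampus. Members were found by name (Ccl, Cxcl, Xcl1 and Cx3cl1 for ligands, Ccr, Cxcr and Xcr1 for receptors, Ackr for atypical receptors) among the 19059 genes of the panel, leaving out Cx3cr1 and Ccrl genes. A total of 55 symbols matched, of which 34 were ligands, 17 receptors and 4 atypical receptors. A gene was kept when at least 1 cell class held 20 or more of its UMIs (unique molecular identifiers, each standing for 1 captured molecule) over both libraries. That left 42 genes, made up of 26 ligands, 12 receptors and all 4 atypical receptors. The genes just inside the limit were Ackr4 with 21 UMIs, Ccl22 with 22 and Ccl11 with 24 in their best class, and those just outside were Cxcl1 with 17, Cxcr1 with 13 and Ccr3 with 9. The other 10 genes left out were Cxcl2, Cxcl3, Cxcl15, Cxcl17, Ccl1, Ccl20, Ccl26, Ccr4, Ccr8 and Xcr1, and Cxcl15 had no UMI in any kept cell.

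The study compared aged C57BL/6 mice given tomatidine, a steroidal compound from the tomato plant, with aged C57BL/6 mice on standard chow. Treated mice ate chow with 0.05% tomatidine for 3 months from 21 months of age, and both groups held both sexes. The hippocampi of 4 mice were pooled for each group, so there was 1 library of single cells per group, made from fixed RNA with a probe kit. A difference below therefore compares 2 libraries, without any test of the groups. A gene was called higher or lower in a class when its CPM (UMIs per 1000000 UMIs of that class and library) differed by more than 1.5-fold between libraries, among genes that reached 20 UMIs there. Paired values are given with control first and tomatidine second, log2 ratios are tomatidine over control, and bracketed 95% ranges cover counting error only.

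Inflammatory CC chemokines such as Ccl3, Ccl4 and Ccl5 are made on stimulation and act on leukocyte receptors such as Ccr1, whereas Cxcl12, Cxcl14 and Cx3cl1 are made constitutively in brain. Cx3cl1 (fractalkine) is a neuronal membrane ligand read by microglia, and Cxcl12 acts on Cxcr4 in cell positioning and vessel biology. Atypical receptors bind chemokines without G protein signalling, and they take up or carry the ligand: Ackr3 binds Cxcl12, and Ackr1 (the Duffy antigen) binds many inflammatory chemokines and is a known marker of venules.

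The control library held 15912 cells with 279525565 UMIs and the tomatidine library 15185 cells with 259059908 UMIs, and 15115 and 14502 cells were kept after filtering, with medians of 7077 and 7408 UMIs. A total of 262 barcodes occurred in both libraries among the kept cells. Cells were grouped into 14 named classes by markers, each written as "-like" (thalamic-type stands for thalamic or other subcortical neurons), and unnamed clusters held 13.7% and 17.2% of the kept cells. Free RNA gives some UMIs in cells that do not make a gene, so levels in oligodendrocyte-like cells (3062 and 2379 cells, median 5326 and 4879 UMIs) are given as a background where needed.

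All 42 genes were found in the GENCODE annotation of GRCm38. Chromosome 11 holds 13 of them, including most CC ligands, chromosome 9 holds 8, chiefly CC receptors, and chromosomes 1 and 5 hold 5 each. Ccl3 lies at chr11:83647844-83649355 on the minus strand. The 250 bases before the start of 5 ligand genes are printed 5' to 3' on the strand of the gene, as ligands of microglia-like cells that did and did not differ between libraries. Ccl3 and Ccl12 were lower in the tomatidine library through few cells, Ccl9 lies on the same chromosome and was close to equal, and Cxcl9 and Cxcl10 are interferon-responsive ligands. Sequences are from RefSeq on GRCm38.p6. Capitals mark matches, on either strand, to GGGNNNNNCC, a loose form of the site read by NF-kappaB factors, or to GAAANNGAAA, a loose form of the interferon-stimulated response element.
Ccl3, chr11:83649379-83649628, minus strand: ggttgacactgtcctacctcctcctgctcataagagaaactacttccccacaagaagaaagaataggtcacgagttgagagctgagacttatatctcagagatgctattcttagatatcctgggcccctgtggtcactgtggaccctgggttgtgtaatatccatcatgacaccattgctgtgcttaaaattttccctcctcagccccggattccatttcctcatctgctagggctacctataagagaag
Ccl12, chr11:82101595-82101844, plus strand: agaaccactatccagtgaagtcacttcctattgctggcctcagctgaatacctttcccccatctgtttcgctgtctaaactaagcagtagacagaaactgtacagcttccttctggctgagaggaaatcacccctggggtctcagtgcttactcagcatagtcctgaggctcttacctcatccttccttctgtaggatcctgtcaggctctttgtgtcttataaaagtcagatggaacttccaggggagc
Ccl9, chr11:83578637-83578886, minus strand: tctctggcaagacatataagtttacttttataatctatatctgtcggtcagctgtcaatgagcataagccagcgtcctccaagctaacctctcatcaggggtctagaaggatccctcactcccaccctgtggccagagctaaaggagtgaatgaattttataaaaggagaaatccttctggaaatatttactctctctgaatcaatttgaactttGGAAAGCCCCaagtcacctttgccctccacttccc
Cxcl9, chr5:92328080-92328329, minus strand: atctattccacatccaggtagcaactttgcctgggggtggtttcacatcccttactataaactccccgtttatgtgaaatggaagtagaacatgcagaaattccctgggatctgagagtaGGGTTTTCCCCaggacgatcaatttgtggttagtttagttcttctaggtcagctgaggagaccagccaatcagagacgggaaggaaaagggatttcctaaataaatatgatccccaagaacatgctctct
Cxcl10, chr5:92348890-92349139, minus strand: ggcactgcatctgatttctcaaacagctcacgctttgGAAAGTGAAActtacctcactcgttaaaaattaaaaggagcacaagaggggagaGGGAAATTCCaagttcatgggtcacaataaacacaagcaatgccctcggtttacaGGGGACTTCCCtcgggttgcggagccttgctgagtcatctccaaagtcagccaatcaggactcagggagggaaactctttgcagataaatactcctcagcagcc
Neither form occurs in these bases of Ccl3 and Ccl12. Ccl9 has 1 match to the first form, Cxcl9 has 2 that overlap, and Cxcl10 has 3, of which 2 overlap, together with 1 match to the second form at 213 bases before the start. Of all 32851 promoters listed by RefSeq, 45.8% held the first form and 2.98% the second. Of the 30 genes with an entry there, 15 held the first form and 3 the second, which were Ccl19, Cxcl10 and Cxcl14. A match describes letters and is not a measured site.

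**Figure D1:**
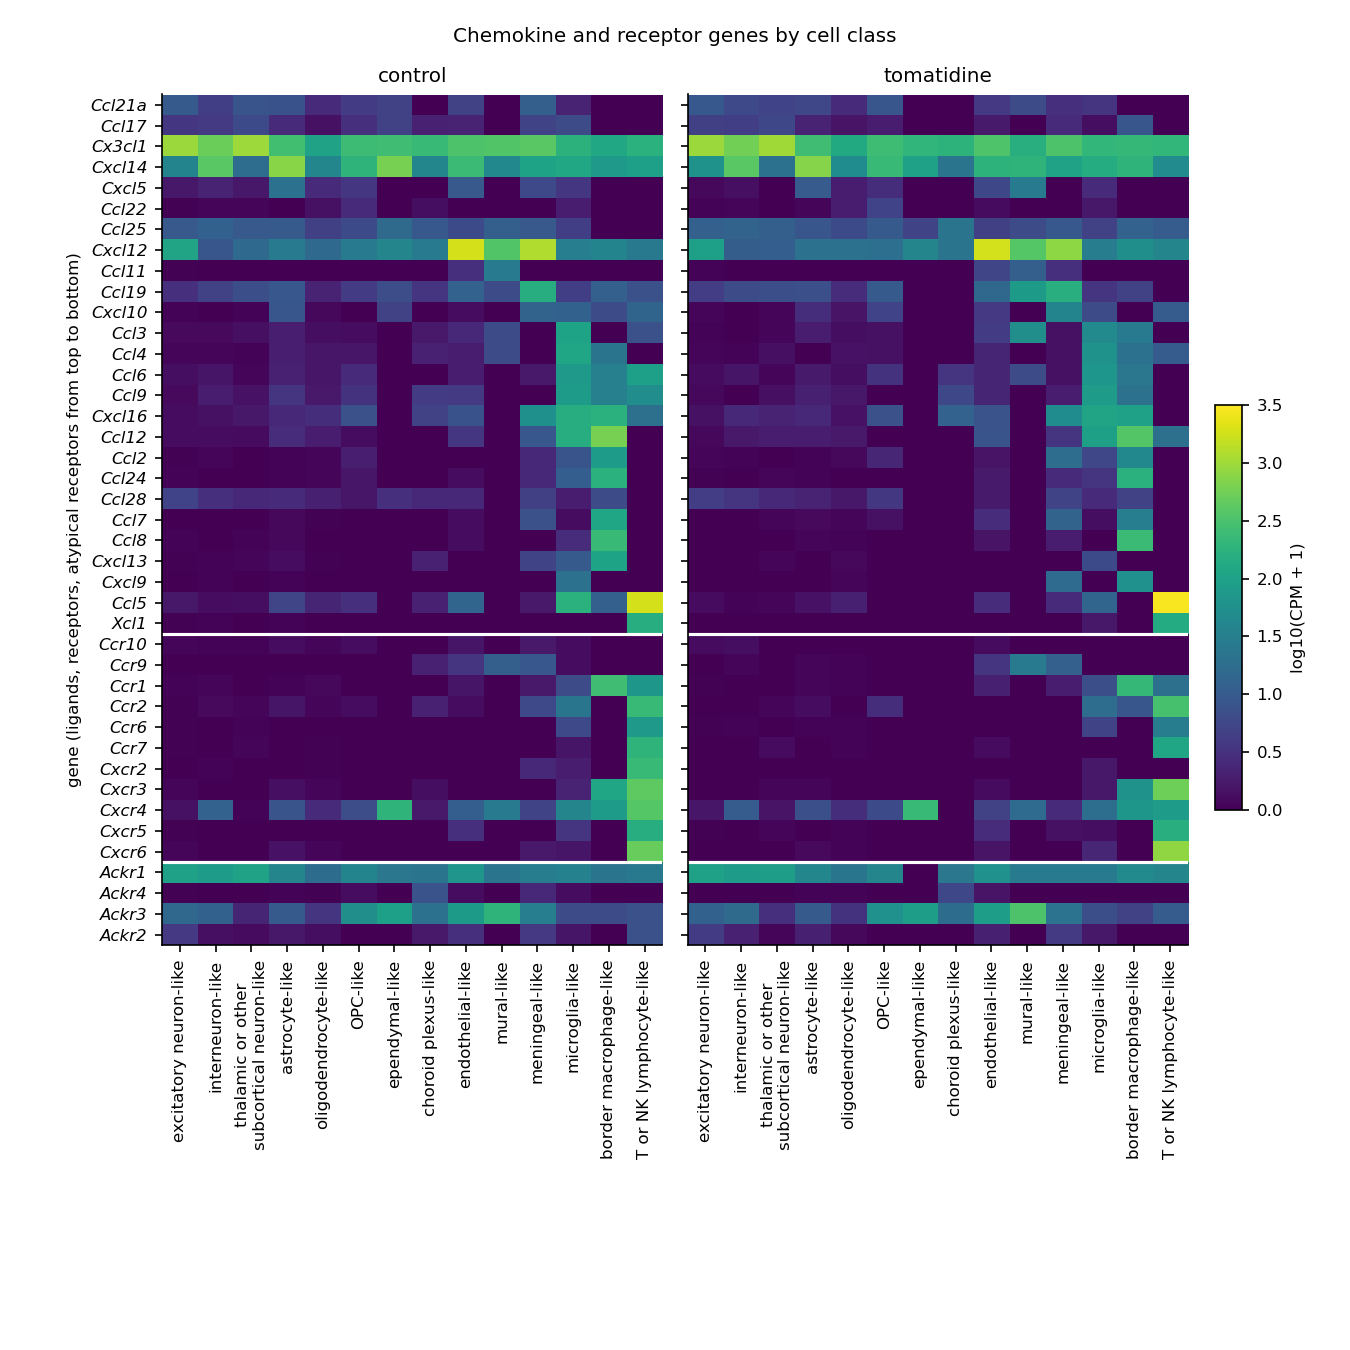
Heat maps of log10(CPM + 1) for 41 genes (rows, ligands above receptors above atypical receptors, separated by white lines) in 14 cell classes (columns), with the control library on the left and the tomatidine library on the right. Cx3cl1 is brightest in neurons, Cxcl12 in endothelial-like and meningeal-like cells, Ccl3 to Ccl12 in microglia-like and border macrophage-like cells, and Ccl5 and the Cxcr genes in T or NK lymphocyte-like cells.

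Microglia-like cells (917 and 810 cells, median 3127 and 2890.5 UMIs) held the largest set of CC ligands. Among the 24 member genes tested there, 11 were lower and none was higher in the tomatidine library, where 2.81% of the 12209 genes tested in this class were lower and 5.78% higher. The median log2 ratio of the 24 genes was -0.41, against 0.04 over all genes tested, and 18 of them lay below zero. The lower genes were the ligands Ccl2, Ccl3, Ccl4, Ccl5, Ccl12, Ccl17, Ccl24, Cxcl9, Cxcl10 and Cxcl13 and the receptor Cxcr4. For several of them a small number of cells held most UMIs. Over 7497 and 7013 genes of the class, the 5 highest cells held a median of 8.3% and 9.15% of a gene's UMIs. The background shares thus came mostly from less concentrated genes and are not matched to these members. Keeping only members with at least 50 UMIs in the class left 7 past 1.5-fold, and the share of all genes at that limit is not given here. Each count was also repeated with at most 5 UMIs of a gene per cell, a limit chosen after seeing the data. Under that limit 7 of 23 genes were lower, against 2.49% of all genes, and Ccl3, Ccl4 and Ccl12 were no longer among them.

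Ccl3, a ligand of Ccr1 made by stimulated microglia, had 363 and 131 UMIs (106 and 45.4 CPM), and its log2 ratio was -1.23 [-1.52 to -0.93]. The number of cells with a Ccl3 UMI was 45 in each library, or 4.91% and 5.56% of cells. The 5 cells with the most Ccl3 held 100, 61, 54, 51 and 19 UMIs in the control library and 24, 11, 9, 8 and 8 in the tomatidine library. Thus the libraries held equally many positive cells and differed in the few cells with the highest counts, and the log2 ratio with at most 5 UMIs per cell was 0.19. With the mean over cells of counts per 10000, which weights cells equally, it was -0.55.

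Ccl4, which lies next to Ccl3, had 384 and 171 UMIs (112 and 59.2 CPM) with a log2 ratio of -0.92 [-1.19 to -0.66]. Its UMIs came from 43 and 35 cells, the highest 5 of which held 137, 66, 44, 24 and 18 UMIs in control and 47, 27, 22, 12 and 9 in tomatidine. With at most 5 UMIs per cell the log2 ratio was -0.03, and with the mean over cells -0.13. Ccl3 and Ccl4 were found together in 16 control cells and 19 tomatidine cells. In oligodendrocyte-like cells Ccl3 had 7 and 5 UMIs and Ccl4 12 and 7 UMIs.

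Ccl12, a mouse ligand of Ccr2, had 512 and 278 UMIs (149.6 and 96.3 CPM) and a log2 ratio of -0.64 [-0.85 to -0.42], again with similar shares of positive cells, 14.2% and 15.4% of cells. Its highest 5 cells held 93, 54, 50, 36 and 21 UMIs in control and 18, 15, 11, 9 and 8 in tomatidine, and the log2 ratio was 0.24 with at most 5 UMIs per cell. It was within 1.5-fold at clustering resolution 0.3 (-0.54) and with the mean over cells (-0.49). The direction of Ccl3 and Ccl12 therefore turned with the limit of 5 UMIs.

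**Figure D2:**
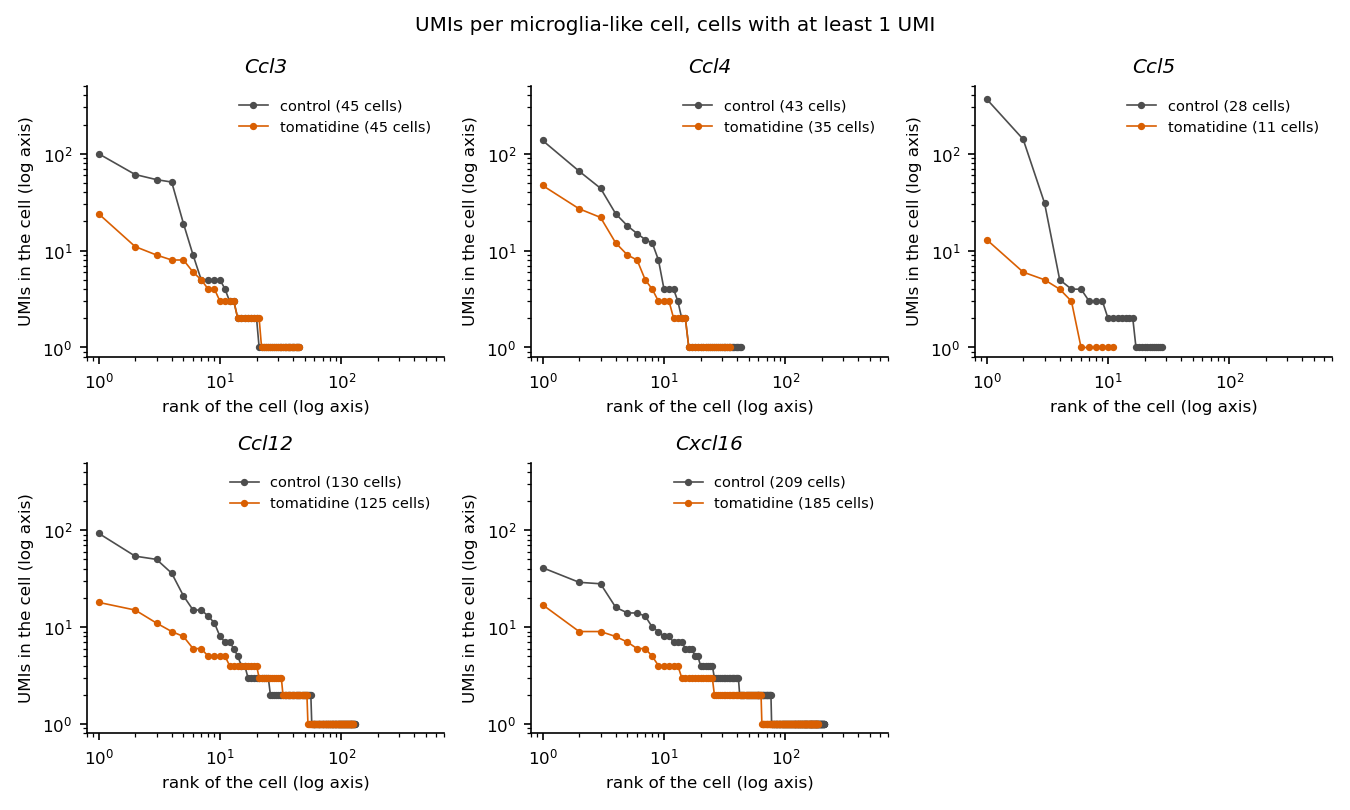
UMIs per cell (vertical axis, log scale) against the rank of the cell (horizontal axis, log scale) for 5 genes in microglia-like cells with at least 1 UMI, with control in grey and tomatidine in orange. For Ccl3, Ccl4 and Ccl12 the curves meet at 1 to 5 UMIs and part at the highest ranks, and for Ccl5 they part most at the 3 highest ranks.

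Ccl5, a ligand best known from T cells, had the log2 ratio furthest from zero of the members with 50 or more UMIs that were found in both libraries, with 587 and 37 UMIs (171 and 12.8 CPM) and a log2 ratio of -3.74 [-4.26 to -3.26]. A single control cell held 367 of the control UMIs and a second held 141, while the highest tomatidine cell held 13. Positive cells numbered 28 and 11, and with at most 5 UMIs per cell the log2 ratio was -0.92. The cells with 367 and 141 UMIs had 22331 and 16037 UMIs in all, 0 and 1 of 10 T or NK lymphocyte markers and all 10 microglia markers. Summed T or NK lymphocyte markers were 5.55 and 7.96 CPM in the class, and 4 settings ended the difference: the log2 ratio of Ccl5 was 0.22 with all deposited cells, 0.0075 without doublet removal, -0.04 without integration of the libraries and 0.18 at clustering resolution 1.5. Of the interferon-responsive ligands, Cxcl9 had 66 and 0 UMIs (19.3 and 0 CPM), all from 5 control cells, and Cxcl10 had 38 and 16 UMIs (11.1 and 5.54 CPM) from 6 and 3 cells. The Cxcl10 log2 ratio of -1.003 turned under 5 settings, to values of 0.30 to 0.66. For 0 UMIs of Cxcl9 the exact 95% limit is 3.69 UMIs, which covers counting error only. It does not hold for UMIs that come together in 1 cell. At clustering resolution 0.3 the class had 66 and 15 Cxcl9 UMIs, with 13 of the tomatidine ones in 1 cell.

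Not all of the class's ligands were lower. Ccl6 had 261 and 196 UMIs (76.2 and 67.9 CPM), and Ccl9, which neighbours Ccl6 on chromosome 11, had 284 and 242 UMIs (83 and 83.8 CPM) with a log2 ratio of 0.01 [-0.24 to 0.27]. Cxcl16, a membrane-bound ligand of Cxcr6, had 514 and 321 UMIs (150.1 and 111 CPM) in 209 and 185 cells, or 22.8% and 22.8% of cells (13.6% and 13.7% with cells thinned to 1500 UMIs), and its log2 ratio of -0.43 [-0.64 to -0.23] moved to -0.09 with at most 5 UMIs per cell. Cx3cl1 and Cxcl14, which other classes hold at higher levels, had 596 and 602 UMIs (174 and 208 CPM) and 428 and 422 UMIs (125 and 146 CPM). Ccl2, the main monocyte attractant, had 24 and 13 UMIs, Ccl24 35 and 7 UMIs, Ccl17 19 and 1 UMIs and Cxcl13 30 and 15 UMIs. Ccl17 and Cxcl13 each had a control cell with 15 UMIs, and Ccl24 had 1 with 17.

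Cxcr4, the receptor of Cxcl12, had 132 and 51 UMIs (38.6 and 17.7 CPM) with a log2 ratio of -1.13 [-1.62 to -0.65], or -1.003 with at most 5 UMIs per cell. That ratio was 0.06 without doublet removal, -0.01 without integration, -0.33 with all deposited cells and -0.29 at resolution 1.5. Ccr2, the monocyte receptor of Ccl2 and Ccl12, had 74 and 48 UMIs (21.6 and 16.6 CPM) in 26 and 13 cells. Ccr1 and Ccr6 had 18 and 17 UMIs and 17 and 12 UMIs.

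**Figure D3:**
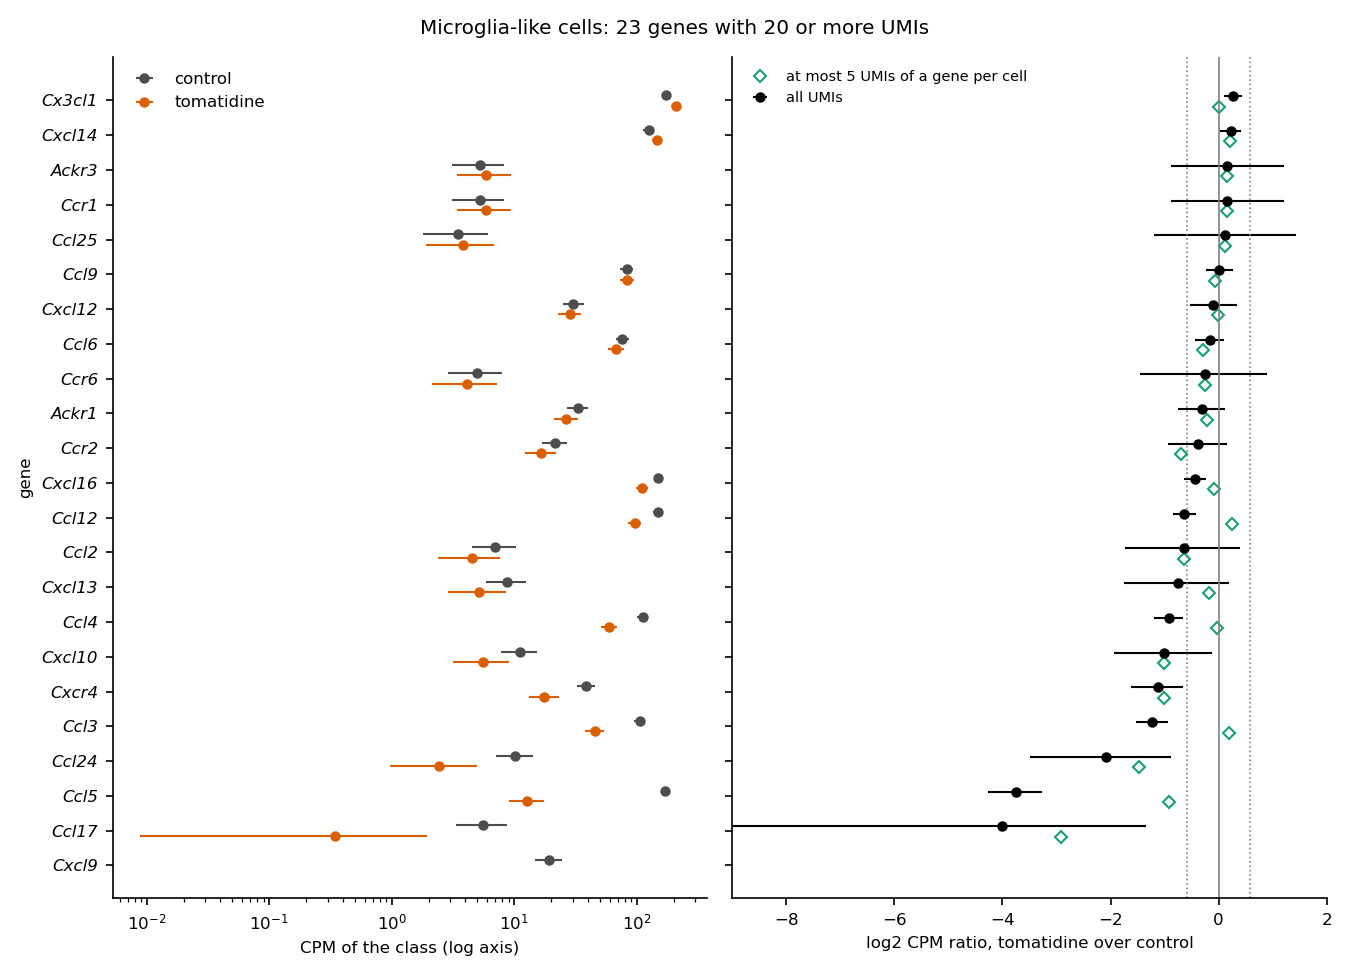
A total of 23 genes with at least 20 UMIs in microglia-like cells, as CPM on a log axis (left; control grey, tomatidine orange; bars are exact 95% Poisson intervals) and as log2 CPM ratio, tomatidine over control (right; black points with 95% counting intervals, green diamonds with at most 5 UMIs of a gene per cell). Dotted lines mark 1.5-fold and Ccl17 has an interval that runs off the axis. Cxcl9 has no tomatidine point and no ratio because it had 0 UMIs there. Diamonds for Ccl3, Ccl4 and Ccl12 lie near zero, far to the right of their points.

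Which of these genes were lower depended on where the clusters were cut. In a finer clustering (resolution 1.5), 46 control and 27 tomatidine cells of the microglia-like class fell into an unnamed cluster led by H2-Ab1, H2-Aa, H2-Eb1, Mrc1, Cd74 and Cd163, which are antigen presentation and macrophage genes. In these cells microglia markers summed to 20759.9 and 15276 CPM, and border macrophage markers to 827 and 676 CPM. Granulocyte or monocyte markers summed to 413 and 270.2 CPM there, against 2.54 and 14.6 CPM in the microglia-like cells kept. They held 558 of the 587 control Ccl5 UMIs and 8 of the 37 tomatidine ones, 65 of the 66 control Cxcl9 UMIs, 75.8% and 54.9% of Cxcr4 UMIs and 83.8% and 83.3% of Ccr2 UMIs. By contrast they held 10.5% and 5.34% of Ccl3 UMIs and 10.7% and 1.75% of Ccl4 UMIs. The 869 and 783 cells that stayed microglia-like at that resolution (2 further control cells fell into other clusters) had log2 ratios of -1.19 for Ccl3, -0.83 for Ccl4 and -0.73 for Ccl12, but 0.20 for Ccl5, -0.27 for Cxcr4 and -0.11 for Cxcl16. Thus the lower Ccl5, Cxcl9 and Cxcr4 came with the split-off cells, and the lower Ccl3, Ccl4 and Ccl12 did not.

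Cells with UMIs of at least 2 of Cst7, Clec7a and Itgax, genes of activated microglia, were set apart by a marker gate from cells with none of them (60 and 43 activated and 693 and 641 other cells). The 290 of 1727 cells with 1 of these genes were in neither group. Ccl3 had 252 and 8 UMIs (632 and 32 CPM) in the activated cells and 82 and 75 UMIs (34.7 and 34.6 CPM) in the others. Ccl4 was at 675 and 40 CPM in the activated cells and 39.8 and 51.7 CPM in the others, and Ccl12 at 409 and 140.1 CPM and 129 and 89.6 CPM. Summed Ccl3 was thus close to equal in the other cells and differed in the activated ones. In the other cells 1 control cell held most of the 82 control UMIs. Its UMIs there came from 12 of 60 control cells (20%) and 4 of 43 tomatidine cells (9.3%). In the whole class the highest control cells held 100, 61, 54 and 51 of the 363 control Ccl3 UMIs. With 252 control UMIs in the gate and 82 in the others, 3 of these 4 cells must be in the gate. The remaining 1, with 51 to 61 UMIs, was among the others. The Ccl3 difference in the gate therefore rests mostly on 3 control cells, and its spread over activated cells was not tested. Cxcl16 was at 562 and 320.2 CPM in activated and 66.4 and 75.2 CPM in other cells. The activated cells also held 554 and 24 Ccl5 UMIs (1390 and 96.1 CPM). The control cells with 367 and 141 Ccl5 UMIs were therefore in this gate as well as among the split-off cells. The gate and the split-off cells thus overlapped, and the gate name rests on its 3 genes alone.

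**Figure D4:**
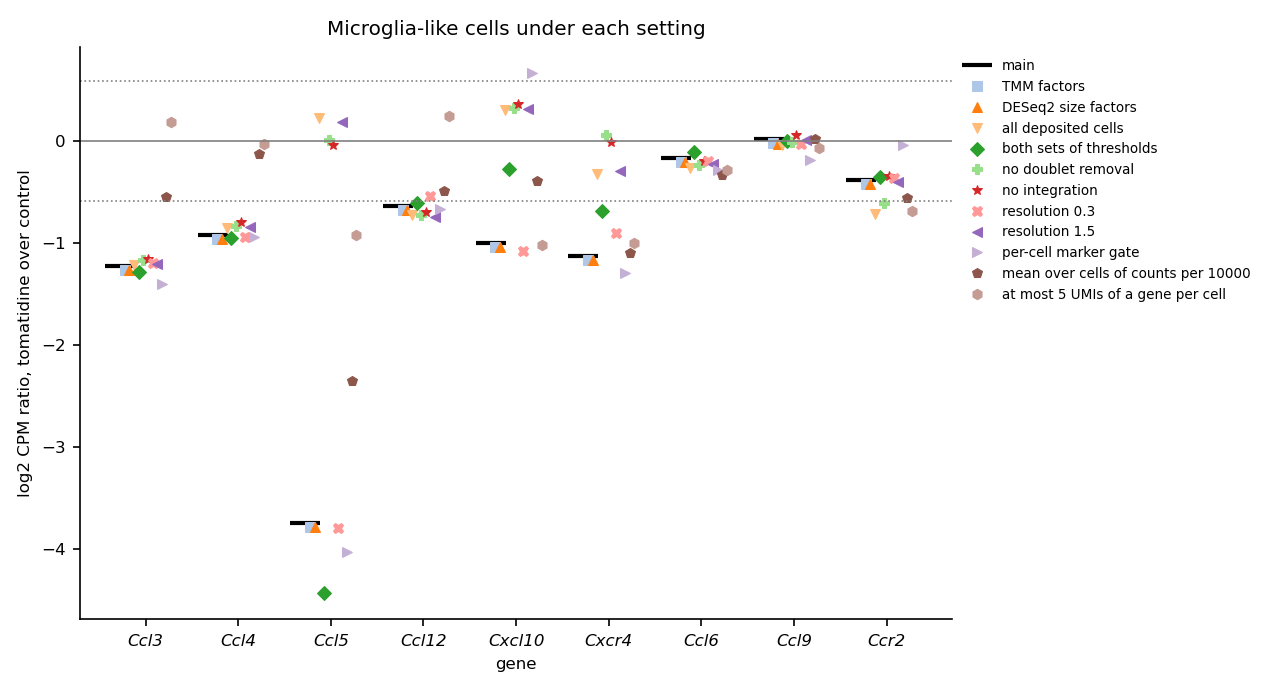
Log2 CPM ratio, tomatidine over control (vertical axis), of 9 genes in microglia-like cells under the main setting (black bar) and each alternative (coloured symbols), with dotted lines at 1.5-fold. Ccl6 and Ccl9 stay within the lines throughout, Ccl3 and Ccl12 cross zero only with at most 5 UMIs per cell, and Ccl5, Cxcl10 and Cxcr4 come near or cross zero under several settings.

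Cx3cl1 was the most abundant member, with 281829 UMIs in kept cells, and neurons held most of them. Excitatory neuron-like cells had 103711 and 93403 UMIs (939 and 953 CPM), in 98.9% and 99.4% of cells. Thalamic-type neuron-like cells had 11688 and 7803 UMIs (966 and 999 CPM), and interneuron-like cells 6851 and 6870 UMIs (512 and 564 CPM). Levels were close between libraries in all 3 neuronal classes, and lower in interneuron-like cells than in the other 2. Among gated excitatory neurons Cx3cl1 was highest in CA1, at 1095 and 1086 CPM, and lowest in dentate granule cells, at 836 and 836 CPM.

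Outside neurons Cx3cl1 was lower in every class. Meningeal-like cells had 562 and 794 UMIs (399 and 330.3 CPM), endothelial-like cells 1145 and 1302 UMIs (331 and 338 CPM) and astrocyte-like cells 2787 and 3288 UMIs (275 and 263 CPM). OPC-like cells (oligodendrocyte precursors) had 768 and 561 UMIs (248 and 256 CPM), ependymal-like cells 137 and 47 UMIs (264 and 201 CPM), choroid plexus-like cells 661 and 79 UMIs (236 and 185 CPM) and oligodendrocyte-like cells 2007 and 1963 UMIs (102 and 131 CPM). Mural-like cells had 67 and 30 UMIs (352 and 158 CPM), border macrophage-like cells 23 and 55 UMIs (123 and 212 CPM) and T or NK lymphocyte-like cells 27 and 22 UMIs (169.8 and 208 CPM). The log2 ratio was -1.16 [-1.83 to -0.52] in mural-like cells, or -0.30 with at most 5 UMIs per cell, and 0.79 [0.06 to 1.56] in border macrophage-like cells, where it turned to -1.50 with a per-cell marker gate in place of clusters. With an abundant neuronal transcript, the part of free RNA in these lower levels was not tested.

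Cxcl12, the ligand of Cxcr4 and Ackr3, was highest in endothelial-like cells at 6539 and 6927 UMIs (1889 and 1797 CPM) and next in meningeal-like cells at 1705 and 1937 UMIs (1209 and 806 CPM). The meningeal log2 ratio was -0.59 [-0.68 to -0.49], just past 1.5-fold, and within it under 10 other settings, at -0.58 to -0.10. Among gated endothelial cells, Cxcl12 was at 2340.5 and 2322 CPM in capillary, 774 and 938 CPM in arterial and 417 and 519.8 CPM in venous cells. Mural-like cells had 67 and 72 UMIs (352 and 378 CPM) of Cxcl12.

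Excitatory neuron-like cells had 11960 and 9109 UMIs (108 and 92.9 CPM) of Cxcl12, most of it in 1 group. Dentate granule cells were at 217 and 199.7 CPM with 81.5% and 79.6% of cells positive, against 13.9 and 20.8 CPM in CA1 and 16.8 and 33.2 CPM in CA3. The oligodendrocyte-like level was 14.7 and 19.9 CPM, close to that of CA1. Other classes had low levels too: 261 and 252 UMIs (25.7 and 20.1 CPM) in astrocyte-like, 104 and 119 UMIs (7.77 and 9.77 CPM) in interneuron-like, 179 and 79 UMIs (14.8 and 10.1 CPM) in thalamic-type neuron-like and 288 and 298 UMIs (14.7 and 19.9 CPM) in oligodendrocyte-like cells. OPC-like cells had 82 and 39 UMIs (26.5 and 17.8 CPM), choroid plexus-like cells 72 and 9 UMIs (25.8 and 21 CPM) and ependymal-like cells 20 and 9 UMIs (38.5 and 38.5 CPM).

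Cxcl14, a constitutive chemokine with no settled receptor, was shared by astrocytes and a group of interneurons. Astrocyte-like cells had 7709 and 9272 UMIs (759.8 and 741 CPM), in 73.8% and 80.9% of cells, and interneuron-like cells had 5290 and 4898 UMIs (395 and 402 CPM). Gated CGE interneurons (from the caudal ganglionic eminence) stood at 971 and 1032 CPM, far over somatostatin interneurons at 63.9 and 80.1 CPM and parvalbumin interneurons at 29.7 and 19.2 CPM. In astrocyte-like cells and CGE interneurons the libraries were within 1.5-fold.

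Excitatory neuron-like cells had 4145 and 6024 UMIs (37.5 and 61.5 CPM) of Cxcl14, and here the tomatidine library was higher, with a log2 ratio of 0.71 [0.65 to 0.77]. The ratio was within 1.5-fold under 4 settings, at 0.47 with both sets of thresholds on cells in the study's methods, 0.58 with the per-cell marker gate, 0.54 with the mean over cells and 0.53 with at most 5 UMIs per cell. A Cxcl14 UMI was found in 25.7% and 30.7% of cells, against 17.9% and 19.4% of cells in the oligodendrocyte-like class. These shares are at unlike depth, with medians of 16645 and 15835 UMIs against 5326 and 4879. By CPM (given below) the oligodendrocyte-like class lay over the excitatory neuron-like class in control and under it in tomatidine. CA1 cells were at 60.4 and 93.3 CPM, CA3 cells at 28.1 and 35 CPM and dentate granule cells at 19.2 and 24.9 CPM, so CA1 had the largest of these differences. The CA1 gate held 1061 and 1182 cells, the CA3 gate 423 and 404, and the dentate gate 2733 and 2143. Their log2 ratios of 0.63, 0.32 and 0.37 were each below the 0.71 of the class. The part of cells outside these gates and of the mix of cells in the class ratio was not tested.

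Elsewhere Cxcl14 gave 850 and 691 UMIs (246 and 179 CPM) in endothelial-like cells and 783 and 728 UMIs (39.9 and 48.7 CPM) in oligodendrocyte-like cells. OPC-like cells had 581 and 519 UMIs (187 and 237 CPM), meningeal-like cells 149 and 246 UMIs (106 and 102 CPM) and thalamic-type neuron-like cells 204 and 148 UMIs (16.9 and 19 CPM). The small classes differed most: ependymal-like cells (34 and 14) had 316 and 23 UMIs (608 and 98.5 CPM), of which 289 control UMIs sat in 1 cell. Choroid plexus-like cells (347 and 35) had 110 and 9 UMIs (39.4 and 21 CPM), mural-like cells 8 and 36 UMIs (42 and 189 CPM) and border macrophage-like cells 14 and 48 UMIs (74.9 and 185 CPM). With both sets of thresholds the direction turned in ependymal-like (1.82) and choroid plexus-like cells (0.55), and with the mean over cells the border macrophage-like ratio was 0.44.

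**Figure D5:**
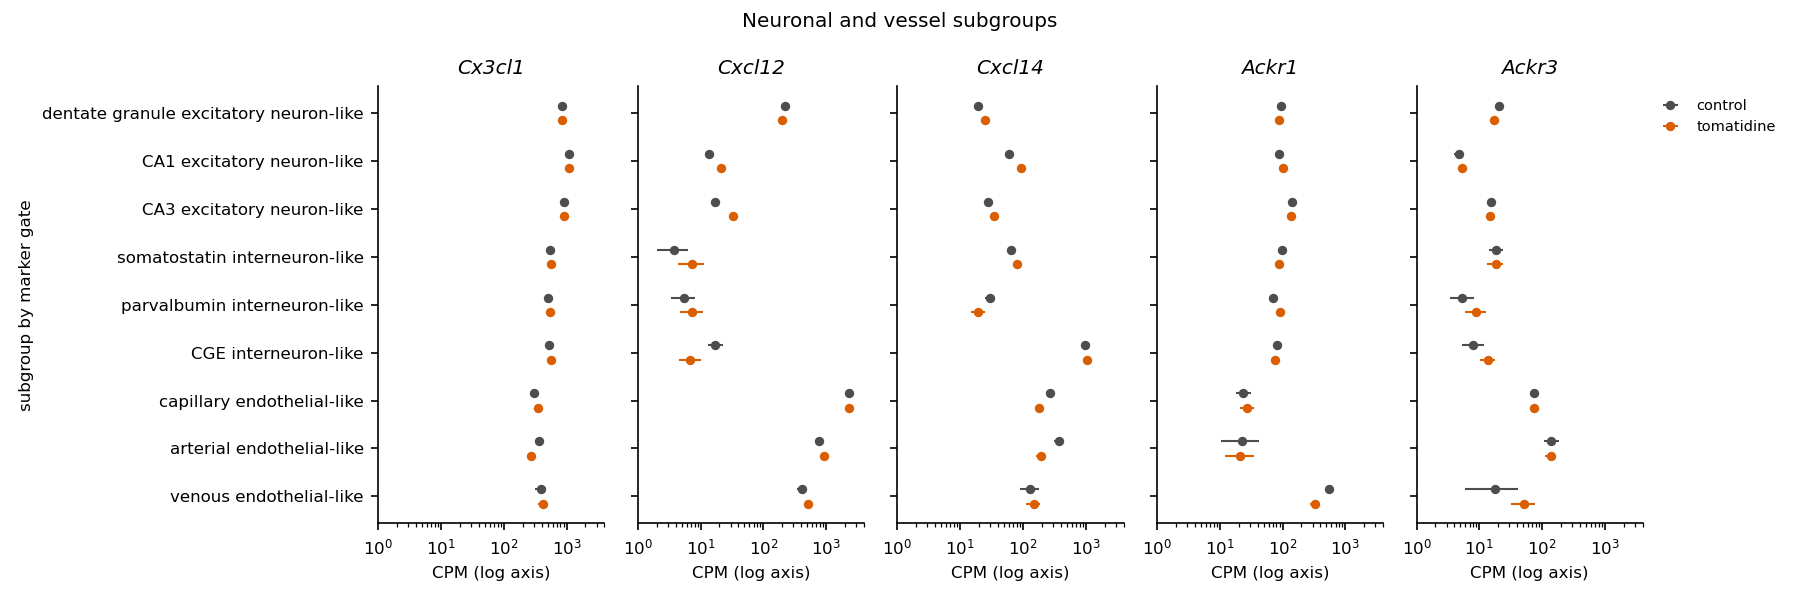
CPM on a log axis of 5 constitutive genes in neuronal and endothelial subgroups set by marker gates, with control in grey and tomatidine in orange and bars giving exact 95% Poisson intervals. Cxcl12 is highest in capillary cells and, among neurons, in dentate granule cells, Cxcl14 in CGE interneurons, and Ackr1 in venous cells.

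Among the remaining ligands of the excitatory neuron-like class, Ccl25 had 938 and 1048 UMIs (8.5 and 10.7 CPM), Ccl21a 961 and 806 UMIs (8.7 and 8.22 CPM), Ccl28 444 and 328 UMIs (4.02 and 3.35 CPM) and Ccl17 287 and 358 UMIs (2.6 and 3.65 CPM), and Ccl12 34 and 19 UMIs (0.308 and 0.194 CPM). The Ccl12 log2 ratio was -0.67 [-1.56 to 0.18], and within 1.5-fold with all deposited cells (-0.22), without doublet removal (-0.20) and with the per-cell marker gate (-0.06). Ccl25, Ccl21a, Ccl28 and Ccl17 are known as thymic, lymph node, epithelial and dendritic cell ligands. Here 14.9% and 17.8% of cells of the class had a Ccl25 UMI, against 2.16% and 2.82% of cells in the oligodendrocyte-like class. The cells differed in depth, with medians of 16645 and 15835 UMIs against 5326 and 4879. By CPM (given below) the 2 classes lay closer together. Counts of Ccl21a are uncertain, since the mouse genome has nearly identical copies of this gene. In interneuron-like cells Ccl25 had 149 and 144 UMIs (11.1 and 11.8 CPM), Ccl21a 46 and 61 UMIs (3.44 and 5.01 CPM) and Ccl17 40 and 43 UMIs (2.99 and 3.53 CPM). In thalamic-type neuron-like cells they had 103 and 82 UMIs (8.51 and 10.5 CPM), 87 and 32 UMIs (7.19 and 4.1 CPM) and 62 and 37 UMIs (5.12 and 4.74 CPM), and Ccl28 had 19 and 12 UMIs (1.57 and 1.54 CPM). The Ccl21a log2 ratio there was -0.81 [-1.44 to -0.21], but it turned to 0.86 with both sets of thresholds and was -0.26 with the mean over cells.

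Glial classes held the same ligands at similar or lower levels. Astrocyte-like cells had 88 and 97 UMIs (8.67 and 7.75 CPM) of Ccl25 and 68 and 57 UMIs (6.7 and 4.55 CPM) of Ccl21a, and oligodendrocyte-like cells 70 and 75 UMIs (3.56 and 5.02 CPM) and 31 and 25 UMIs (1.58 and 1.67 CPM). OPC-like cells had 16 and 19 UMIs (5.16 and 8.68 CPM) of Ccl25, and choroid plexus-like cells 23 and 9 UMIs (8.23 and 21 CPM). The 4 remaining members had no more than 44 UMIs in any named class. Ccl11, an eosinophil attractant, had 7 and 17 UMIs in endothelial-like cells, Ccl22, a dendritic cell ligand, 9 and 13 in oligodendrocyte-like cells, Ccr9, the receptor of Ccl25, 11 and 26 in meningeal-like cells, and Ccr10, a receptor of Ccl28, 18 and 26 in excitatory neuron-like cells.

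Ccl19, a ligand of Ccr7 made by stromal cells, was highest in meningeal-like cells (281 and 522 cells) with 215 and 387 UMIs (153 and 161 CPM), in 31.7% and 28.4% of cells. Levels there were close, with a log2 ratio of 0.08 [-0.17 to 0.33]. Low levels elsewhere were past 1.5-fold higher in the tomatidine library in 3 classes: 230 and 331 UMIs (2.08 and 3.38 CPM) in excitatory neuron-like cells with a log2 ratio of 0.70 [0.45 to 0.95], 23 and 27 UMIs (1.17 and 1.81 CPM) in oligodendrocyte-like cells with a log2 ratio of 0.62 [-0.23 to 1.49], and 10 and 19 UMIs (3.23 and 8.68 CPM) in OPC-like cells. The excitatory ratio was 0.55 with both sets of thresholds and 0.48 with the mean over cells, and the oligodendrocyte ratio was within 1.5-fold under 6 settings, at 0.52 to 0.56. Ccl19 was within 1.5-fold in interneuron-like cells with 50 and 67 UMIs (3.73 and 5.5 CPM), endothelial-like cells with 40 and 55 UMIs (11.6 and 14.3 CPM), astrocyte-like cells with 79 and 76 UMIs (7.79 and 6.07 CPM) and thalamic-type neuron-like cells with 71 and 46 UMIs (5.87 and 5.89 CPM).

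Inducible ligands outside microglia were found in few cells. Cxcl5, a neutrophil attractant, had 204 and 113 UMIs (20.1 and 9.03 CPM) in astrocyte-like cells, 1 control cell holding 41, with log2 ratios of -1.15 [-1.50 to -0.82] in all and -0.77 with at most 5 UMIs per cell. It had 29 and 18 UMIs (8.38 and 4.67 CPM) in endothelial-like and 78 and 20 UMIs (0.706 and 0.204 CPM) in excitatory neuron-like cells, and its highest level was in an unnamed cluster of 158 and 147 cells led by Myoc, Thbs4, Gfap and Aqp4, with 360 and 269 UMIs (158.0 and 124 CPM). Cxcl10 had 77 and 23 UMIs (7.59 and 1.84 CPM) in astrocyte-like cells, where 1 control cell held 45 UMIs, and 17 and 90 UMIs (12.1 and 37.4 CPM) in meningeal-like cells, where 1 tomatidine cell held 55. The 2 classes therefore differed in opposite directions, and in each the higher library held 1 such cell. Neither direction held throughout: the meningeal log2 ratio was -0.58 with all deposited cells and -1.35 with the per-cell marker gate, and the astrocyte ratio was 0.18 with all deposited cells, 0.20 without integration and 0.09 at resolution 0.3. In the same meningeal-like class Ccl2 had 2 and 40 UMIs (1.42 and 16.6 CPM), Ccl7 9 and 29 UMIs, Cxcl9 0 and 38 UMIs (0 and 15.8 CPM) from 1 cell, and Cxcl16 78 and 118 UMIs (55.3 and 49.1 CPM) from 45 and 80 cells. Cxcl16 also had 20 and 14 UMIs (6.45 and 6.4 CPM) in OPC-like cells.

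Ccl5 outside microglia-like cells was lower in the tomatidine library in 3 further classes, each time with 1 control cell ahead: 44 and 6 UMIs (4.34 and 0.479 CPM) in astrocyte-like cells with 28 in 1 cell, 44 and 7 UMIs (12.7 and 1.82 CPM) in endothelial-like cells with 36 in 1 cell, and 78 and 25 UMIs (0.706 and 0.255 CPM) in excitatory neuron-like cells with 28 in 1 cell. The endothelial log2 ratio turned to 1.68 with the per-cell marker gate and the excitatory one to 0.24 with both sets of thresholds. Its main source by level was the T or NK lymphocyte-like class (54 and 32 cells), with 302 and 308 UMIs (1899 and 2909 CPM). A Ccl5 UMI was found in 50% and 53.1% of cells there, and the log2 ratio was 0.62 [0.38 to 0.85], or 0.06 with at most 5 UMIs per cell. The highest cell held 79 UMIs in control and 142 in tomatidine.

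The T or NK lymphocyte-like cells also held most lymphocyte receptors. Cxcr6, the receptor of Cxcl16, had 78 and 87 UMIs (490.4 and 822 CPM) and Cxcr3, the receptor of Cxcl9 and Cxcl10, 67 and 56 UMIs (421 and 529 CPM). Ccr2 had 36 and 32 UMIs (226 and 302 CPM), Ccr7 30 and 12 UMIs (189 and 113 CPM) and Cxcr5, the B cell follicle receptor, 24 and 17 UMIs (151 and 161 CPM). Xcl1, a ligand made by activated lymphocytes, had 24 and 15 UMIs (151 and 142 CPM). The log2 ratio of Cxcr6 was 0.74 [0.29 to 1.20], or 0.31 with the per-cell marker gate, while Cxcr3 and Xcl1 were within 1.5-fold.

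Cxcr4 in this class had 60 and 9 UMIs (377 and 85 CPM) with a log2 ratio of -2.15 [-3.35 to -1.13], and Cxcr2, the neutrophil receptor of Cxcl5, had 37 and 0 UMIs (233 and 0 CPM), all in 5 control cells. Markers of other cell types differed with these values. Of the 6 granulocyte or monocyte markers measured, summed levels were 3873 and 37.8 CPM, S100a8, S100a9 and Retnlg were at 0 in the tomatidine library, and Chil3 was at 0 in both. All 6 B lymphocyte markers were lower, with sums of 2257 and 860 CPM, while the 10 T or NK lymphocyte markers summed to 4527 and 5167 CPM. Their part in the Cxcr2, Cxcr4, Cxcr5 and Ccr7 differences was not tested. In all, of 12 members 2 were higher and 5 lower in this class, where 34.6% of all genes were past 1.5-fold.

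Border macrophage-like cells (55 and 72 cells) had their own ligand set. Ccl12 had 113 and 95 UMIs (604 and 367 CPM), Ccl8, a monocyte attractant, 44 and 62 UMIs (235 and 239 CPM), and Ccl24, an eosinophil attractant, 32 and 44 UMIs (171 and 169.8 CPM). Single cells held 35 and 24 of the Ccl8 UMIs and 32 and 28 of the Ccl12 UMIs, and the Ccl12 log2 ratio moved from -0.72 [-1.13 to -0.32] to -0.25 with at most 5 UMIs per cell. Ccr1, a receptor of Ccl3 and Ccl5, was the leading receptor with 50 and 55 UMIs (267 and 212 CPM) in 38.2% and 36.1% of cells. Cxcl16 had 32 and 26 UMIs (171 and 100.3 CPM), Cxcr3 22 and 16 UMIs (118 and 61.7 CPM) and Cxcr4 16 and 18 UMIs (85.6 and 69.5 CPM). Cxcl13, a B cell attractant, had 20 and 0 UMIs, from 3 control cells, and Ccl7 21 and 8 UMIs. Of 14 members tested 2 were higher and 7 lower, in a class where 29.7% of all genes were past 1.5-fold.

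Cxcr4 was also found outside immune cells. Ependymal-like cells had 98 and 54 UMIs (189 and 231 CPM), in 20 and 10 cells, and interneuron-like cells 156 and 116 UMIs (11.7 and 9.53 CPM). Endothelial-like cells had 35 and 15 UMIs (10.1 and 3.89 CPM) with a log2 ratio of -1.38 [-2.36 to -0.47], astrocyte-like cells 73 and 77 UMIs (7.19 and 6.15 CPM), OPC-like cells 18 and 11 UMIs (5.81 and 5.03 CPM) and oligodendrocyte-like cells 32 and 28 UMIs (1.63 and 1.87 CPM).

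Ackr3, the scavenging receptor of Cxcl12, was highest in mural-like cells (38 and 39 cells) with 36 and 63 UMIs (189 and 331 CPM) and a log2 ratio of 0.81 [0.19 to 1.44]. Ependymal-like cells had 48 and 21 UMIs (92.4 and 89.9 CPM), endothelial-like cells 279 and 333 UMIs (80.6 and 86.4 CPM) and OPC-like cells 165 and 128 UMIs (53.2 and 58.5 CPM). In gated endothelial cells Ackr3 was at 141 and 138 CPM in arterial and 74.7 and 74 CPM in capillary cells, and in venous cells it had 5 and 22 UMIs (18 and 51.7 CPM) with a log2 ratio of 1.52 [0.09 to 3.28]. Among classes with 20 or more Ackr3 UMIs, vessel, ependymal and precursor cells thus had the highest CPM. Of these vessel, ependymal and precursor classes, mural-like cells were past 1.5-fold. The most Ackr3 UMIs were in excitatory neuron-like cells.

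Excitatory neuron-like cells had 1495 and 1087 UMIs (13.5 and 11.1 CPM) of Ackr3, with 20.6 and 16.9 CPM in dentate granule cells and 4.66 and 5.34 CPM in CA1. Interneuron-like cells had 148 and 188 UMIs (11.1 and 15.4 CPM), meningeal-like cells 43 and 49 UMIs (30.5 and 20.4 CPM) and choroid plexus-like cells 56 and 7 UMIs (20 and 16.4 CPM). Astrocyte-like cells had 89 and 111 UMIs (8.77 and 8.87 CPM), oligodendrocyte-like cells 46 and 34 UMIs (2.34 and 2.27 CPM) and thalamic-type neuron-like cells 16 and 16 UMIs (1.32 and 2.05 CPM).

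Ackr1 was found in all 3 neuronal classes. It had 10921 and 9888 UMIs (98.9 and 101 CPM) in excitatory neuron-like, 1116 and 1014 UMIs (83.4 and 83.3 CPM) in interneuron-like and 1229 and 686 UMIs (102 and 87.9 CPM) in thalamic-type neuron-like cells, and 70.8% and 70.5% of cells of the excitatory class had a UMI. CA3 cells were highest among gated excitatory neurons at 139 and 134 CPM. Endothelial-like cells had 230 and 226 UMIs (66.5 and 58.6 CPM), and the venous gate (27 and 70 cells) was at 550.4 and 325 CPM against 23.9 and 27.5 CPM in the capillary gate (191 and 225 cells).

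Glia and border cells had less Ackr1. Astrocyte-like cells had 383 and 494 UMIs (37.7 and 39.5 CPM), OPC-like cells 116 and 84 UMIs (37.4 and 38.4 CPM), meningeal-like cells 42 and 66 UMIs (29.8 and 27.5 CPM), choroid plexus-like cells 60 and 10 UMIs (21.5 and 23.4 CPM) and oligodendrocyte-like cells 323 and 331 UMIs (16.4 and 22.1 CPM). Ackr2, a scavenger of inflammatory CC chemokines, was higher in CA1 than in dentate granule cells: excitatory neuron-like cells had 316 and 307 UMIs (2.86 and 3.13 CPM), CA1 cells were at 6.8 and 6.18 CPM and dentate granule cells at 0.546 and 0.618 CPM. Ackr4, which takes up Ccl19, Ccl21 and Ccl25, had 19 and 2 UMIs (6.8 and 4.68 CPM) in choroid plexus-like cells.

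Of 15 members in endothelial-like cells (296 and 416 cells) 3 were higher and 3 lower, in a class where 8.47% of all genes were past 1.5-fold. Among the higher ones Ccl12 had 9 and 27 UMIs, of which 8 and 19 sat in 1 cell each, and Ccl11 had 7 and 17 UMIs. Cxcl16 was within 1.5-fold with 23 and 26 UMIs (6.65 and 6.74 CPM). Cxcr4, Cxcl5 and Ccl5 were lower. This class held pericyte and smooth muscle RNA as well. Its 10 mural markers summed to 6480 and 7953 CPM with none at 0, 3 of them (Acta2, Tagln and Myh11) were higher, and their part in the member values was not tested.

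Counts in the other classes stood against backgrounds of different size. In excitatory neuron-like cells (4880 and 4485) 4 of 23 members were higher and 4 lower, against 6.41% of all genes in either direction. In astrocyte-like cells (1853 and 2102) 1 of 21 was higher and 5 lower, against 4.9%, and in oligodendrocyte-like cells 2 of 17 were higher and 3 lower, against 6.83%. In interneuron-like cells (555 and 516) 1 of 14 was higher and 1 lower, against 6.25%, in thalamic-type neuron-like cells (282 and 234) 1 of 11 was higher and 1 lower, against 8.89%, and in OPC-like cells (383 and 347) 3 of 11 were higher, against 8.64%.

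Classes of few cells or of very unequal cell numbers had wider backgrounds. In meningeal-like cells 4 of 15 members were higher and 2 lower, against 10.6% of all genes, and in choroid plexus-like cells 1 of 8 was higher and 2 lower, against 27%. In ependymal-like cells 1 of 5 was lower, against 33.8%, and in mural-like cells 2 of 4 were higher and 1 lower, against 30.3%. Over all 194 pairs of member and class, 26 were higher, 46 lower and 122 within 1.5-fold, and 13% of the 149589 pairs of any gene and class were past it. In border macrophage-like, choroid plexus-like, ependymal-like, mural-like and T or NK lymphocyte-like cells genes of any kind passed 1.5-fold often, and nothing is read from their members' counts.

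Genes that act with chemokines were mostly within 1.5-fold in microglia-like cells. Of 5 measured relatives outside the naming rule 3 were tested and all were within 1.5-fold: Cmklr1, the chemerin receptor, had 711 and 593 UMIs, Cklf 122 and 69, and Ccrl2 77 and 71. In endothelial-like cells Ccrl2 (92 and 177 UMIs) and Cmklr1 (20 and 44) were higher, and the platelet chemokines Ppbp (194 and 94) and Pf4 (51 and 35) were lower. All 13 G protein, arrestin and receptor kinase genes tested, all 10 migration signalling genes and all 10 NF-kappaB and transcription genes were within 1.5-fold too, with median log2 ratios of -0.01, -0.14 and -0.10. Of 8 immediate early genes tested none passed 1.5-fold, with a median of -0.13. Of 5 proteases that cut chemokines, Mmp9 was lower with 21 and 10 UMIs, and of 7 inflammatory cytokines tested Il6 was higher with 21 and 30 UMIs. Markers of other cell types in this class gave 2 of 3 border macrophage markers tested lower (Mrc1 with 92 and 43 UMIs, Ms4a7 with 177 and 87), 3 of 5 mural markers higher, and 2 higher and 1 lower of 4 granulocyte or monocyte markers (Chil3 with 57 and 1 UMIs). Their part in the member values was not tested.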

How the data were processed

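Single cells of fixed hippocampi from 4 pooled mice per group were measured with 1 control and 1 tomatidine library. The authors deposited UMI counts per gene and cell, made, per the submitters' processing notes, with Cell Ranger 8.0.0 on mm10. No normalized values were used, and no column belonged to other samples. Cells with at least 500 UMIs, 250 genes, a complexity of 0.8 and at most 20% mitochondrial UMIs were kept. Scrublet called 0 and 2 doublets and so had not worked, and the 2% of cells with the highest doublet score were removed instead (308 and 296 cells). The libraries were integrated by reciprocal principal components (Seurat 5.3.0 in R 4.3.3, 2000 variable genes, 30 components, Louvain resolution 0.8), leaving 119 genes out of the clustering, with 37 clusters. Clusters were named by markers, and a marker was raised at 2-fold or more over the median cluster in at least 10% of cells. A name needed at least 3 raised markers and the lead among the top 10 genes by fold. Where no marker was among the top 10, a name needed at least 3 raised markers and at least 2 times as many as the next class. Clusters with 3 or more of a list of striatal genes among the top 10 were left unnamed. This naming rule was rewritten after the clusters were seen. Shares held by unnamed clusters are given with the results.

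UMIs were summed per library and class and divided by the class total to give CPM. Sums have exact Poisson intervals, shares exact binomial (Clopper-Pearson) intervals and ratios exact conditional binomial intervals, at 95%, for counting error only. The calculation was tested on simulated class sums with independent UMIs. That setting does not cover genes whose UMIs sit in few cells. With 1 library per group no p-value was computed and edgeR 4.0.16 (TMM factors) and DESeq2 1.42.0 (size factors) served for scaling only. In each class the 10 members with the most UMIs were named, and each member with 50 or more UMIs past 1.5-fold. A single member is counted but not reported here. The members, the markers and the lists (relatives, G proteins, migration signalling, NF-kappaB, proteases, cytokines, immediate early genes) were chosen with earlier results of these data known. Python 3.11.15, numpy 2.4.6, pandas 2.3.3, scipy 1.17.1 and scanpy 1.11.5 were used.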

Additional observations from a re-analysis of the deposited data

Results flagged for a closer look

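Among pairs of member and class with 50 or more UMIs, 4 member genes were higher in the tomatidine library in some classes and lower in others, past 1.5-fold each way. How many genes of any kind did so was not counted, so the number of members has no background here. With 1 library per group these differences between classes were not tested. Ccl5 had a log2 ratio of 0.62 in T or NK lymphocyte-like cells, but -3.74 in microglia-like, -3.18 in astrocyte-like, -2.81 in endothelial-like and -1.47 in excitatory neuron-like cells. In each of the 4 lower classes 1 control cell held more Ccl5 UMIs than the whole tomatidine class. Cxcl10 had 1.63 in meningeal-like cells, against -2.05 in astrocyte-like and -1.003 in microglia-like cells. Cxcl14 had 0.71 in excitatory neuron-like and 1.31 in border macrophage-like cells, against -0.90 in choroid plexus-like and -2.63 in ependymal-like cells, the last with 289 control UMIs in 1 cell. Cx3cl1 had 0.79 in border macrophage-like and -1.16 in mural-like cells. In T or NK lymphocyte-like, border macrophage-like, choroid plexus-like, ependymal-like and mural-like cells 27% to 34.6% of all genes were past 1.5-fold. Without these classes only Cxcl10 differed both ways.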

How the results depend on the processing

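Of the recomputed log2 ratios of single genes 277 were counted as in place, 41 as moved and 24 as turned in direction. These labels do not follow the 1.5-fold limit. Cxcl10 in microglia-like cells was counted as in place at -0.27 with both thresholds, against -1.003 in the main setting. Cxcl14 in excitatory neuron-like cells was counted as moved at 0.82 with all deposited cells, against 0.71. With TMM or DESeq2 factors all 40 ratios and counts kept their direction and moved little, but Ccl19 in oligodendrocyte-like (0.56) and Cxcl12 in meningeal-like cells (-0.55) came within 1.5-fold. The median log2 ratio of members in microglia-like cells was below zero under all settings tried, but its size varied. It was -0.41 in the main setting, -0.26 with all deposited cells, -0.23 without integration and -0.18 without doublet removal. With at most 5 UMIs of a gene per cell it was -0.13. The 11 members past 1.5-fold in microglia-like cells became 6 without integration, 5 at resolution 1.5, 6 with the mean over cells, 7 with at least 50 UMIs and 7 with at most 5 UMIs of a gene per cell. The 6 in endothelial-like cells became 3 with both sets of thresholds of the study's methods, 0 with a per-cell marker gate, 2 with at least 50 UMIs and 18 with 1 UMI in each library. The 72 pairs over all classes became 39 with both thresholds, 33 with at least 50 UMIs and 150 with 1 UMI in each library. The share of all genes past 1.5-fold is given only for the main setting and, in microglia-like cells, for at most 5 UMIs per cell. The other counts therefore have no background here.

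Log2 ratios that turned were, with all deposited cells, Cxcl10 in astrocyte-like (0.18), meningeal-like (-0.58) and microglia-like cells (0.30) and Ccl5 in microglia-like cells (0.22). With both thresholds they were Cxcl14 in choroid plexus-like (0.55) and ependymal-like cells (1.82), Ccl5 in excitatory neuron-like cells (0.24) and Ccl21a in thalamic-type neuron-like cells (0.86). Without doublet removal they were Cxcr4 (0.058), Cxcl10 (0.33) and Ccl5 (0.0075) in microglia-like cells, and without integration Cxcl10 in astrocyte-like (0.20) and microglia-like cells (0.36). At resolution 0.3 Cxcl10 in astrocyte-like cells was 0.094, and at resolution 1.5 Cxcl10 and Ccl5 in microglia-like cells were 0.31 and 0.18. With the gate they were Cx3cl1 in border macrophage-like (-1.50), Ccl5 in endothelial-like (1.68), and Cxcl10 in meningeal-like (-1.35) and microglia-like cells (0.66). With the mean over cells Cx3cl1 in border macrophage-like cells was -0.14. With at most 5 UMIs per cell Cxcl14 in ependymal-like cells was 0.29, Ccl12 in microglia-like cells 0.24 and Ccl3 there 0.19. The causes were not tested. No paired analysis was possible because each group had 1 library, and no replicate could be left out.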
